A study of Homo sapiens with 4 samples.

Results

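The 10 genes ID1, HM13, BCL2L1, TPX2, MYLK2, FOXS1, TTLL9, POFUT1, PLAGL2 and KIF3B lie in the chromosome 20q11.21 region that is often gained in cultured embryonic stem cells. They were chosen by name and position, with earlier results of these data known, and they are 10 of the 19821 protein-coding genes placed on chromosomes 1 to 22 and X. Peaks were taken from chromosome 20 between 31.4 and 32.7 Mb (hg38), an interval that holds all 10 genes and 15 other protein-coding genes. It was touched by 70 of the 34390 peaks of the YTHDF1 knockdown list and by 47 of the 32791 peaks of the wild-type list.

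The peaks mark monoubiquitinated histone H2A (H2AK119ub), measured by chromatin immunoprecipitation sequencing in H1, an established human embryonic stem cell line grown in mTESR1 medium. One group was H1 cells in which a YTHDF1 shRNA had been used for knockdown, and the other was untreated H1 cells, called wild type here. Each group had 1 H2AK119ub library, so no difference could be set against a replicate spread, none was tested, and the values of the peak lists stand side by side. The labels do not say whether the knockdown cells were 1 clone or a pool. Read counts are not part of these lists, and neither depth nor the number of copies of the interval in either culture was measured. Cover that comes with extra copies and cover that comes with more of the mark per copy cannot be told apart in the values below.

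H2AK119ub is the product of Polycomb repressive complex 1, an E3 ligase built around RING1 or RNF2, and it is best known from CpG-rich promoters of developmental genes. Extra copies of 20q11.21 recur in human pluripotent stem cell cultures, where BCL2L1, which encodes the anti-apoptotic protein BCL-XL, is regarded as the gene that gives the cells a growth advantage. YTHDF1 is a cytoplasmic protein that binds mRNAs carrying N6-methyladenosine.

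The sequences below are shown because some of the results concern what covered the starts of these genes. They are the 250 bases before the start of KIF3B, ID1 and BCL2L1, and the 136 bases between the divergent starts of PLAGL2 and POFUT1, written 5′ to 3′ with each CG dinucleotide in capitals (RefSeq, GRCh38.p14). KIF3B is on the plus strand at chr20:32277401-32277650, ID1 on the plus strand at chr20:31605039-31605288, and BCL2L1 on the minus strand at chr20:31723964-31724213. The shared stretch is given on the plus strand, that of POFUT1, at chr20:32207744-32207879.
KIF3B: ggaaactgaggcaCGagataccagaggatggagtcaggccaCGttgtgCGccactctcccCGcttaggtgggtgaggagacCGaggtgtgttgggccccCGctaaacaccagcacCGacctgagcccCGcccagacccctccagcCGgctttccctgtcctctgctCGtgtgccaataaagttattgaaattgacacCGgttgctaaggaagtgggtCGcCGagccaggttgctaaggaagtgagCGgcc
ID1: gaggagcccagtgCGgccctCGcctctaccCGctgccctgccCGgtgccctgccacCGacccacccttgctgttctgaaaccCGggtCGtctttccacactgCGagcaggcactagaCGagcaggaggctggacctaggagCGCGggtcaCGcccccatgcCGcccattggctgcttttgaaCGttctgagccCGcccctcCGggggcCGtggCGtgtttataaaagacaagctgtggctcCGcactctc
BCL2L1: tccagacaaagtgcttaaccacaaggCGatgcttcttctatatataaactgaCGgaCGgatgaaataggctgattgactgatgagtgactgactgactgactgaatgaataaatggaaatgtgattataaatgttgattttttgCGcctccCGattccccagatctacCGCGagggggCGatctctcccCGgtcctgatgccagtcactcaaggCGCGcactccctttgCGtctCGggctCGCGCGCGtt
PLAGL2 to POFUT1: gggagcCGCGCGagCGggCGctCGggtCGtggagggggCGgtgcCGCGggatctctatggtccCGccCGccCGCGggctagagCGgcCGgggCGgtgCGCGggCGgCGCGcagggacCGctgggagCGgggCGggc
The KIF3B stretch holds 14 CG dinucleotides, that of ID1 19, that of BCL2L1 17 and the shorter stretch between PLAGL2 and POFUT1 25. A peak covered the BCL2L1, ID1, PLAGL2 and POFUT1 stretches in both lists, and the KIF3B stretch in the knockdown list alone.

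The interval was covered by H2AK119ub peaks to an extent far above the rest of chromosome 20 in both lists. Peaks covered 727 kb of it (56.0%) in knockdown cells and 802 kb (61.7%) in wild-type cells. The rest of chromosome 20 was covered to 8.08% in knockdown cells and 9.32% in wild-type cells, and chromosomes 1 to 22 and X to 5.55% and 6.44%. When every chromosome was divided into 2320 tiles of the same 1.3 Mb length, 4 tiles were covered more than the interval in the knockdown list and 5 in the wild-type list. On chromosome 20 alone the interval ranked 2 of 50 tiles in both lists.

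The cover was confined neither to the genes nor to their starts. Inside protein-coding genes it reached 54.8% in knockdown cells and 62.6% in wild-type cells, and outside them 58.5% in knockdown cells and 59.9% in wild-type cells. In bins of 100 kb it lay between 18.0% and 88.6% over the 13 bins of the interval in knockdown cells, with a median of 57.0%. In wild-type cells it lay between 23.6% and 96.0%, with a median of 61.2%. The 52 bins within 2.6 Mb on either side had a median of 2.40% in knockdown cells and 0% in wild-type cells. None of them reached 50%, and the highest were at 27.6% in knockdown cells and 34.0% in wild-type cells. Every bin that starts from -2500 to -300 kb of the lower bound was at 0% in both lists, which lowers the medians. That side runs towards the centromere, and whether peaks can be called there was not examined. The first bin past the upper bound was covered to 21.0% in knockdown cells and 26.6% in wild-type cells, and the next to 5.20% and 7.40%. The equally long stretch towards the centromere, with 5 protein-coding genes, was covered to 0.492% in knockdown cells and 0.508% in wild-type cells. The one beyond the upper bound, with 23 protein-coding genes, was covered to 9.26% in each list.

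**Figure D1:**
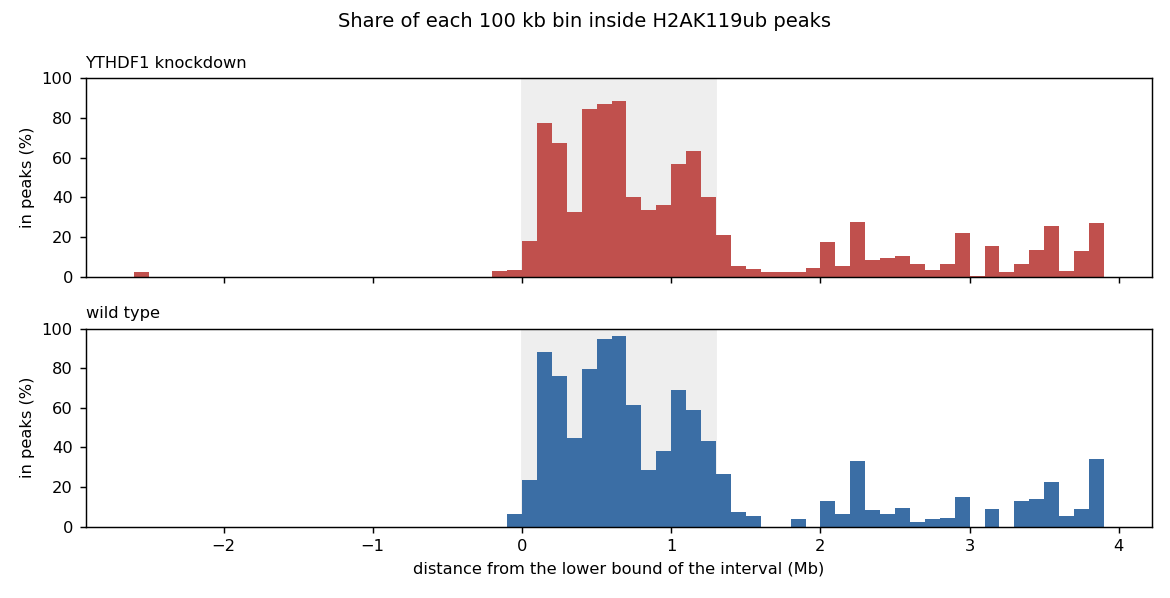
Share of each 100 kb bin of chromosome 20 inside H2AK119ub peaks, against the distance from the lower bound of the interval in Mb, for the YTHDF1 knockdown (upper panel) and the wild type (lower panel), 1 library each. The shaded span is the interval, where bins reached 88.6% in knockdown cells and 96.0% in wild-type cells, while no bin outside it within 2.6 Mb reached 50%.

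The interval held more peaks in the knockdown list than in the wild-type list, and they were narrower. The 70 knockdown peaks had a median width of 7.0 kb and the 47 wild-type peaks one of 8.60 kb, a difference in number of 48.9%. Over all chromosomes the median widths were 3.6 kb in knockdown cells and 4.4 kb in wild-type cells, so narrower knockdown peaks were not particular to the interval. Over the whole of chromosome 20 the peak numbers were 1135 and 1086, a difference of 4.51%. The covered length of the interval differed by -9.35%, against -12.8% for chromosome 20 and -13.7% for all chromosomes. The order of these differences turned when weaker peaks were left out. With the upper 50% of each list by score the interval differed by -24.2%, chromosome 20 by -16.6% and all chromosomes by -15.1%.

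Peaks of the interval were wide for their score. The score is the authors' own value per peak, with a ceiling of 1000 and no stated unit. Scores of the lists are not on a known common scale, so a score is read by its rank within its own list. Of the 70 knockdown peaks, 22 (31.4%) measured 10 kb or more, against 6.95% on the rest of chromosome 20. These 22 had a median score of 35.0, against 184 for the 74 such peaks on the rest of the chromosome. In the wild-type list 22 of 47 peaks (46.8%) measured 10 kb or more, against 10.7% on the rest of the chromosome, and their median scores were 77.3 and 168. Among these wide peaks, 4 knockdown and 3 wild-type ones in the interval scored under 10. No wide peak on the rest of chromosome 20 did so in either list, where the lowest scores were 32.9 in knockdown cells and 23.3 in wild-type cells. On the other chromosomes 4 knockdown peaks (0.164% of the wide ones) and 17 wild-type peaks (0.480%) did.

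**Figure D2:**
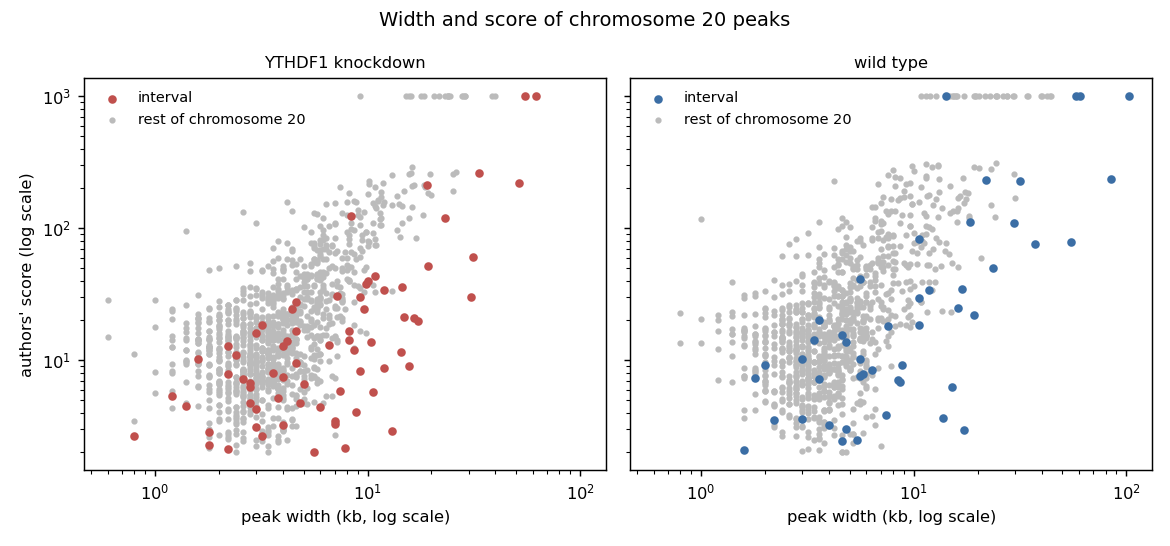
Width in kb against the authors' score of every chromosome 20 peak, both on log scales, for the YTHDF1 knockdown (left) and the wild type (right), with peaks of the interval in colour and all others in grey. At a given width the peaks of the interval tend to lie at the lower edge of the grey cloud, with median scores of 35.0 and 77.3 at 10 kb or more.

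Neighbouring peaks of the interval often stood close together. Of the 69 gaps between knockdown peaks, 19 (27.5%) were 1 kb or less, against 10.6% on the rest of chromosome 20. Of the 46 wild-type gaps, 22 (47.8%) were that short, against 12.2%. The shortest gap in the interval was 0.800 kb in both lists, so the limit of 1 kb lies close to the smallest value. Many domains of the wild type met several knockdown peaks: 18 of 47 wild-type peaks (38.3%) touched 2 or more knockdown peaks, against 10.6% of all wild-type peaks. The reverse held for 16 of 70 knockdown peaks (22.9%), against 6.31% of all knockdown peaks. Such counts of gaps and touching peaks depend on the width and density of peaks, both higher in the interval, and are not traits apart from its cover.

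Most peaks of the interval touched a peak of the other list. At least 1 bp was shared by 56 of 70 knockdown peaks (80.0%), where the share over all chromosomes was 74.1%. The same held for 44 of 47 wild-type peaks (93.6%), where it was 71.4%. Wide peaks in a widely covered interval meet more easily, so these shares are not separate from the cover. Of the covered bases, 85.8% of the knockdown and 77.7% of the wild-type length lay in peaks of the other list. The 14 unshared knockdown peaks had a median width of 2.70 kb and a median score of 5.63, against 8.30 kb and 14 for the shared ones. The widest of them measured 12.0 kb (32268001 to 32280000) and covered the start of KIF3B. The next measured 7.2 kb (32592001 to 32599200) and lay outside protein-coding genes. The wild-type list had 3 unshared peaks, the widest of 7.60 kb (32674201 to 32681800) beyond C20orf203 and of 4.80 kb (32428001 to 32432800) within ASXL1.

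**Figure D3:**
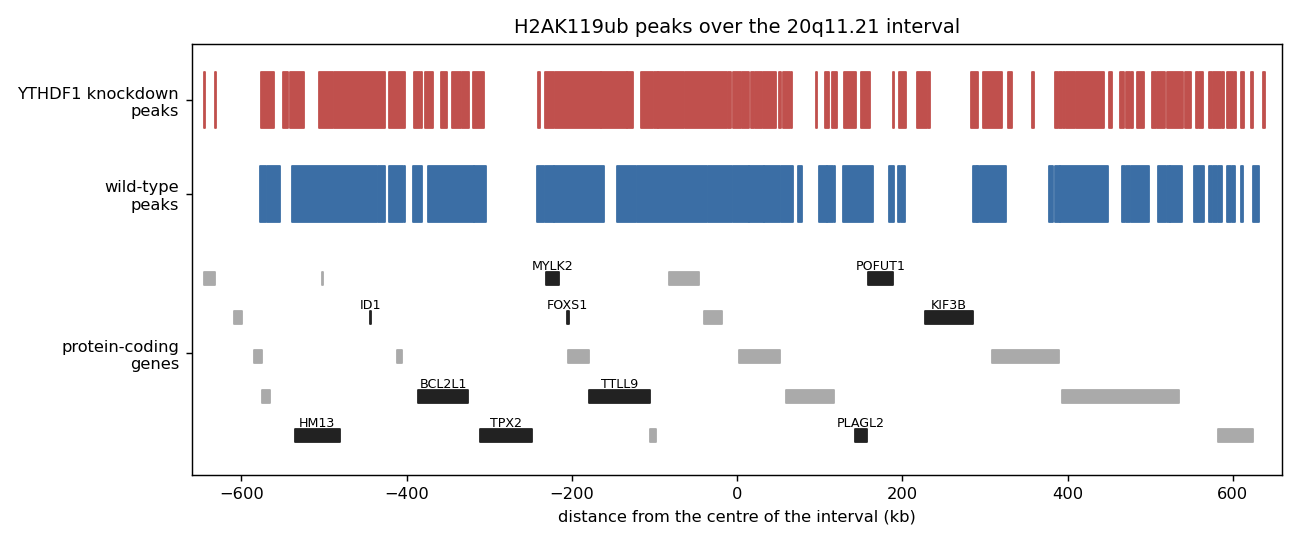
H2AK119ub peaks of the YTHDF1 knockdown (red, upper row) and the wild type (blue, lower row) and the protein-coding genes of the interval (the 10 genes in black with their names, the 15 others in grey), against the distance from the centre of the interval in kb. The 70 knockdown and 47 wild-type peaks fill 56.0% and 61.7% of the interval, with a common gap over TPX2.

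All 10 genes had a peak within 2 kb of an annotated end in each list, where 69.4% of all protein-coding genes did so in knockdown cells, 69.4% in wild-type cells and 64.6% in both. Among the 537 protein-coding genes of chromosome 20 the shares were 81.0% and 80.3%. Of the 15 other genes of the interval, 14 were marked in knockdown cells and 13 in wild-type cells. Genes in a widely covered interval meet a peak more easily, so these counts are not separate from the cover. None of the 10 was marked in knockdown cells alone or in wild-type cells alone, where 4.78% of all protein-coding genes were marked in each of these ways. Starts were listed for 6 of the 10 genes in the promoter table, namely ID1, BCL2L1, TTLL9, PLAGL2, POFUT1 and KIF3B. A peak lay within 2 kb of a listed start in all 6 in knockdown cells, where 68.8% of genes with a listed start had one. It did so in 5 of them in wild-type cells, where the share was 68.0%. KIF3B was the gene marked at its start in knockdown cells alone, as were 5.58% of genes with a listed start, and none of the 6 was marked there in wild-type cells alone, where the share was 4.77%.

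Covered length was counted within 10 kb of both ends of each gene. Its median over the 10 genes was 22.4 kb in knockdown cells and 28.0 kb in wild-type cells. All protein-coding genes had medians of 5.02 and 5.60 kb. Taken gene by gene, the median difference over the 10 genes was -2.66 kb and the mean -1.80 kb, against 0 and -1.09 kb over all protein-coding genes. The covered length was shorter in knockdown cells at 6 of the 10 genes, against 49.1% of all protein-coding genes. It was equal at FOXS1, and longer at HM13, ID1 (by 0.800 kb, and equal with 5 kb windows) and KIF3B. It was shorter by at least 2 kb at 5 of the 10, against 31.1%, and longer by at least 2 kb at 2, against 13.3%. Of all protein-coding genes 9740 had a shorter length, 5505 a longer one and 4576 an equal one. Genes without peaks count as equal, while all 10 genes had peaks, so these shares are not those of comparable genes. The windows of BCL2L1 and TPX2, of TPX2 and MYLK2, of MYLK2 and FOXS1, and of PLAGL2 and POFUT1 overlap, so these genes are not independent. The share of the gene body in peaks had a median of 63.6% in knockdown cells and 91.2% in wild-type cells. Over all protein-coding genes the medians were 5.90% and 6.74%. Taken gene by gene, the median difference over the 10 genes was only -2.09 percentage points, against 0 over all protein-coding genes. The share was lower in knockdown cells at 6 of the 10 genes, against 41.5%, equal at ID1 and FOXS1, and higher at TTLL9 and KIF3B. Over all protein-coding genes it was lower at 8217, higher at 5164 and equal at 6440, and the same limit applies.

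**Figure D4:**
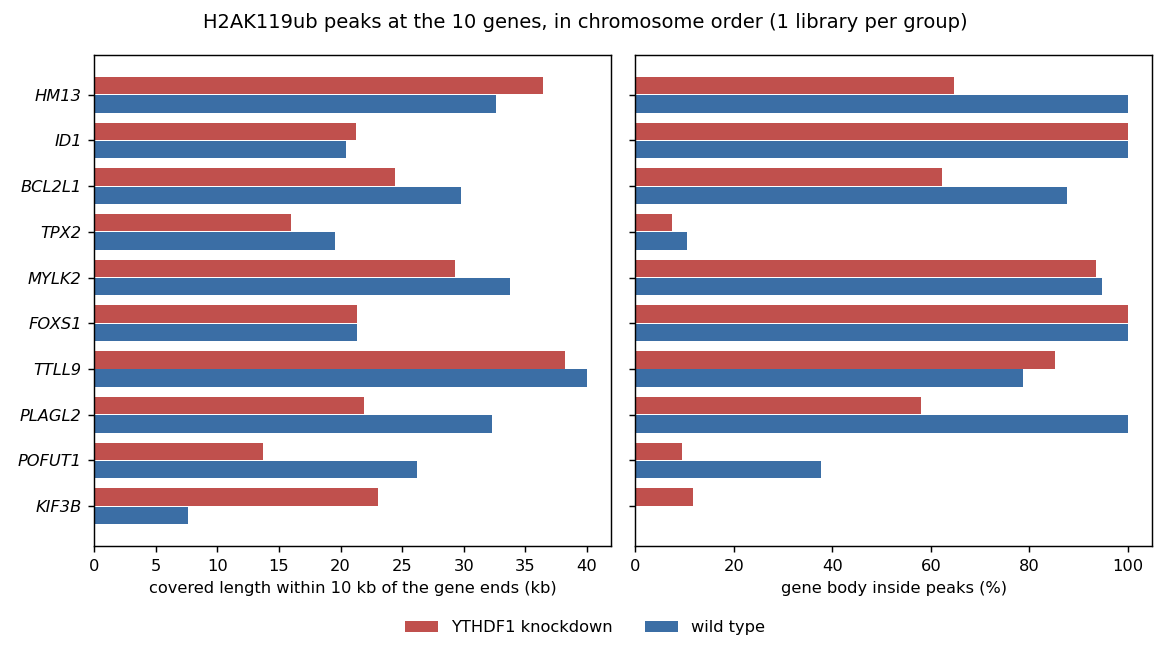
Covered length within 10 kb of the gene ends in kb (left) and share of the gene body inside peaks in percent (right) for the 10 genes in chromosome order, with the YTHDF1 knockdown (red) above the wild type (blue). Bars are single libraries with no replicate; the covered length of POFUT1 was 13.7 kb in knockdown cells and 26.2 kb in wild-type cells, and that of KIF3B 23 kb and 7.61 kb.

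BCL2L1 (31664452 to 31723963) encodes BCL-XL, which blocks apoptosis at the mitochondrion. Its covered length was 24.5 kb in knockdown cells and 29.8 kb in wild-type cells, and 62.4% and 87.6% of the gene body lay in peaks. Knockdown peaks touching the gene numbered 6, with widths between 1.60 and 10.6 kb, and wild-type peaks numbered 2, of 10.6 and 55.0 kb. Both listed starts lay inside peaks in each list. The knockdown peak at the outer start measured 9.20 kb with a score of 30.0, above 74.1% of its list, and the wild-type peak 55.0 kb with a score of 78.4, above 86.9% of its list. The other 5 knockdown peaks scored between 3.28 and 10.3. With the upper 50% of each list by score, 12.0% of the gene body remained in peaks in knockdown cells and 87.6% in wild-type cells. The mark over BCL2L1 was a single block over most of the gene in the wild-type list, and a peak at the start with separate peaks of lower score behind it in the knockdown list.

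ID1 (31605289 to 31606510) encodes a helix-loop-helix protein without a DNA-binding region, which holds back differentiation factors and is a target of BMP signalling. The whole gene lay in a peak in both lists. Its covered length was 21.2 kb in knockdown cells, which filled the window, and 20.4 kb in wild-type cells. The knockdown peak measured 61.8 kb (31562001 to 31623800) and the wild-type peak 102.8 kb (31511801 to 31614600), and both stood at the score ceiling. They are the widest peaks of the interval and of chromosome 20 in their lists. The ID1 stretch printed above held TATAAA, which 9.46% of 22132 promoter windows held on either strand, and TTTGAA, which 12.4% held.

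HM13 (31514442 to 31569543) encodes signal peptide peptidase, a protease of the endoplasmic reticulum membrane, and shares the wild-type domain with ID1. The gene body lay wholly inside that domain in wild-type cells, and to 64.8% in 3 knockdown peaks of 17.2, 16.6 and 61.8 kb. The knockdown gap measured 18.6 kb and lay inside the gene. The covered length near the gene ends was 36.4 kb in knockdown cells and 32.6 kb in wild-type cells. At the lower end the knockdown peak reached farther out than the wild-type one, and another knockdown peak of 5.60 kb lay beyond it. With windows of 20 kb the order turned, with 62.0 kb in knockdown cells and 65.4 kb in wild-type cells. MCTS2, an imprinted retrogene inside HM13, lay wholly in peaks in both lists, with covered lengths of 13.5 kb in knockdown cells and 20.7 kb in wild-type cells.

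TPX2 (31739290 to 31801800) encodes a spindle assembly factor that activates the kinase Aurora A. It was the least covered gene body of the 10 in knockdown cells and, after KIF3B, in wild-type cells, with 7.54% in knockdown cells and 10.4% in wild-type cells. A peak of 13.0 kb in knockdown cells and of 13.8 kb in wild-type cells covered its lower end, and their scores of 2.90 and 3.63 lay above 2.14% and 4.32% of their lists. The upper end lay 7001 bp from the nearest knockdown peak and 6201 bp from the nearest wild-type peak. The gap between peaks over TPX2 measured 64.8 kb in knockdown cells and 62.2 kb in wild-type cells. Among gaps between 2 peaks of the interval, only that of 82.4 kb over KIF3B in the wild-type list was longer. The wild-type list also had no peak from the lower bound up to 31472601, a longer stretch that was not counted as a gap. With the upper 50% of each list by score TPX2 was marked in neither list, and with lists of equal length in wild-type cells alone.

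MYLK2, FOXS1 and TTLL9 lie beside each other, together with the phosphatase gene DUSP15. MYLK2 encodes the myosin light chain kinase of skeletal muscle, FOXS1 a forkhead transcription factor, and TTLL9 a member of the tubulin tyrosine ligase family. All of them touched 1 domain at the score ceiling in each list, of 54.8 kb in knockdown cells (31830001 to 31884800) and 60.6 kb in wild-type cells (31828801 to 31889400). FOXS1 (31844303 to 31845604) and its windows lay wholly inside it, so its covered length was 21.3 kb in each list and could show no difference. MYLK2 (31819356 to 31834684) lay in peaks to 93.5% in knockdown cells and 94.8% in wild-type cells, with covered lengths of 29.3 and 33.7 kb. With the upper 50% by score the MYLK2 values were 26.7 kb in knockdown cells and 26.5 kb in wild-type cells.

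TTLL9 (31870634 to 31945000) had a covered length of 38.2 kb in knockdown cells and 40 kb in wild-type cells, where peaks filled the windows. Its gene body lay in peaks to 85.2% in knockdown cells and 78.8% in wild-type cells. The higher knockdown value rested on a peak of 30.6 kb (31885601 to 31916200) with a score of 30.4, which bridged a wild-type gap of 15 kb. The upper 50% by score gave the opposite order, 60.2% in knockdown cells and 78.8% in wild-type cells. The peak of 30.6 kb stayed in, while knockdown peaks of 7.40 and 14.4 kb, with scores of 5.83 and 11.5, dropped out. The upper 50% by score also gave covered lengths of 25 kb in knockdown cells and 40 kb in wild-type cells. Windows of 20 kb gave 68.6 kb in knockdown cells and 78.0 kb in wild-type cells.

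PLAGL2 (32192504 to 32207743) encodes a zinc finger transcription factor and POFUT1 (32207880 to 32238658) the enzyme that adds O-fucose to Notch receptors. Their starts lie 136 bases apart, in the stretch printed above, and 1 peak covered both starts in each list. That peak measured 10.4 kb in knockdown cells (32200401 to 32210800), with a score of 13.8, above 47.2% of its list, and 37.2 kb in wild-type cells (32177601 to 32214800), with a score of 76.1, above 86.5% of its list. In knockdown cells a second peak of 14.6 kb with a score of 36.2 covered the lower end of PLAGL2, after a gap of 6.40 kb. The covered length of PLAGL2 was 21.9 kb in knockdown cells and 32.3 kb in wild-type cells, and its gene body lay in peaks to 58.0% and 100%. That of POFUT1 was 13.7 kb in knockdown cells and 26.2 kb in wild-type cells, with gene body shares of 9.49% and 37.6%. POFUT1 was unmarked with the upper 50% of each list by score in knockdown cells, with 0 kb against 16.9 kb in wild-type cells, and the PLAGL2 gene body lay in peaks to 9.82% in knockdown cells and 100% in wild-type cells. The POFUT1 difference was -12.5 kb, and 159 of 19821 genes had a lower value. The PLAGL2 difference was -10.4 kb, and 342 genes had a lower one. Both values rest in part on the same wild-type peak of 37.2 kb. Ranks in kb favour genes with long cover, and the medians over all protein-coding genes were 5.02 kb in knockdown cells and 5.60 kb in wild-type cells. At the upper end of POFUT1 a wild-type peak of 5.60 kb reached into the gene, and a knockdown peak of 0.800 kb lay 143 bp beyond it.

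KIF3B (32277651 to 32335011) encodes a motor subunit of kinesin-2, which carries cargo along cilia. Its covered length differed in the opposite direction from those of POFUT1 and ASXL1 on either side. A knockdown peak of 12.0 kb covered its start and another of 2.80 kb lay just inside the gene, with scores of 8.79 and 4.70, above 27.8% and 8.90% of their list. The nearest wild-type peak lay 24.3 kb from the start. The gene body lay in peaks to 11.8% in knockdown cells and to 0% in wild-type cells. At the other end a knockdown peak of 8.20 kb reached into the gene, and a wild-type peak of 4.0 kb lay 790 bp beyond it. The covered length was 23 kb in knockdown cells and 7.61 kb in wild-type cells, a difference of 15.4 kb. Of 19821 genes 1 exceeded it, and no other gene of chromosome 20 had as large a difference. This rank is also in kb and favours genes with long cover. The score of both peaks at the start was below the median of their list. With the upper 50% of each list by score the order turned, with 0 kb in knockdown cells and 1.41 kb in wild-type cells. KIF3B was then marked in neither list. The knockdown peak at the upper end scored 14.2, just below its list median of 14.8. The wild-type value was the edge of the peak of 31.8 kb over the start of ASXL1. Windows of 5 kb (15.8 kb in knockdown cells, 4 kb in wild-type cells) and 20 kb (30.0 and 17.6 kb) kept the order. Lists of equal length kept it as well.

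**Figure D5:**
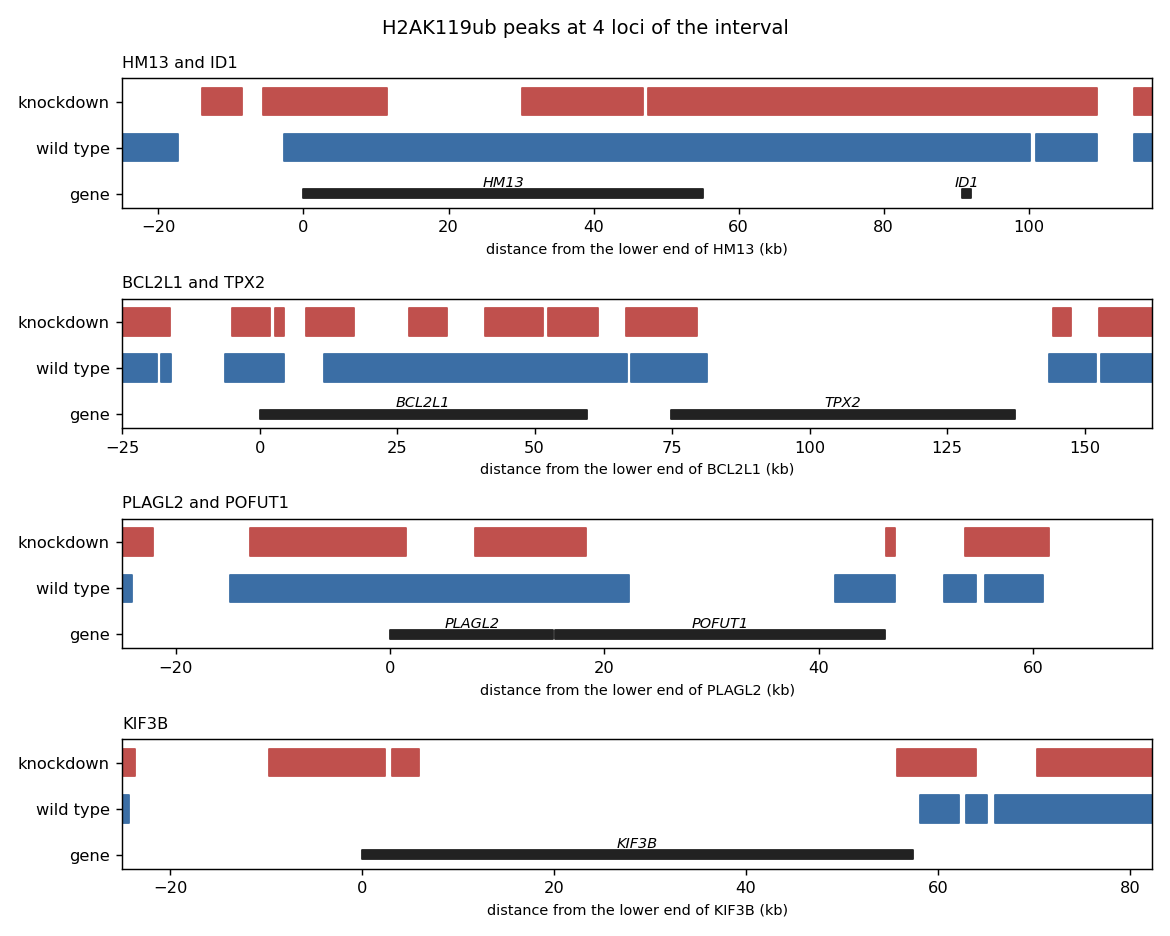
H2AK119ub peaks of the YTHDF1 knockdown (red) above those of the wild type (blue) at 4 loci, with the genes in black, against the distance in kb from the lower end of the first gene named. The wild-type blocks over HM13, BCL2L1 and PLAGL2 meet 3, 5 and 2 knockdown peaks, and the start of KIF3B lies in a knockdown peak alone.

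The 15 other protein-coding genes of the interval were also widely covered. Their median covered lengths were 23.3 kb in knockdown cells and 26.8 kb in wild-type cells, and 14 were marked in knockdown cells and 13 in wild-type cells, against 69.4% of all protein-coding genes in each list. The covered length was shorter in knockdown cells at 8 of them, against 49.1% of all protein-coding genes, those without peaks included. It was longer at 4 of the 15. Those at which it was shorter by at least 2 kb included REM1, MCTS2, TM9SF4, ASXL1 and C20orf203. REM1, a GTPase gene, had 14.8 kb in knockdown cells against 21.3 kb in wild-type cells. TM9SF4 had 23.3 kb in knockdown cells against 26.8 kb in wild-type cells, and C20orf203 had 17.2 kb against 21.2 kb in wild-type cells. ASXL1, whose product binds the H2A deubiquitinase BAP1, had 31.1 kb in knockdown cells and 37.4 kb in wild-type cells, and its listed starts lay inside peaks of 23.2 and 31.8 kb. Beta-defensin genes encode antimicrobial peptides of epithelia. DEFB121 was marked in knockdown cells alone, with 3.20 kb against 0 kb in wild-type cells, DEFB123 in neither list, and DEFB124 in both. The DEFB121 peaks of 1.80 and 1.40 kb scored 2.87 and 4.46, above 2.05% and 7.90% of the knockdown list. The wild-type peak of 84.8 kb over TTLL9, PDRG1, XKR7 and CCM2L (31928801 to 32013600) was the second widest of its list in the interval and met 4 knockdown peaks. The third widest knockdown peak measured 51.8 kb (31986601 to 32038400) and lay over XKR7 and CCM2L.

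Families of the 10 genes were counted with the same windows, and each count includes the member described above. The shares to set beside them are those of all protein-coding genes, of which 69.4% were marked in each list and 64.6% in both. Marked in each list alone were 4.78%, and 49.1% had a shorter covered length in knockdown cells, genes without peaks included. Of the 17 genes of the BCL2 family, which set the balance of cell survival and apoptosis, 16 were marked in each list, with median covered lengths of 12.6 kb in knockdown cells and 15.9 kb in wild-type cells. Covered length was shorter in knockdown cells at 12 of the 17, equal at 2, and longer at 3, namely BCL2L2, BCL2L10 and BBC3. The longest differences were at BID (12.6 kb in knockdown cells, 22.8 kb in wild-type cells) and BAX (14.4 and 23.9 kb). All 4 ID genes were marked in both lists, with medians of 17.5 kb in knockdown cells and 17.0 kb in wild-type cells. ID3 had 19.2 kb in knockdown cells and 18.1 kb in wild-type cells. The 3 PLAG genes, PLAGL2 among them, had shorter covered lengths in knockdown cells, PLAGL1 with 10 kb against 17.2 kb in wild-type cells.

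Of 12 genes of spindle assembly, TPX2 among them, 10 were marked in knockdown cells and 11 in wild-type cells, against 69.4% of all protein-coding genes in each list, with medians of 5.50 kb in knockdown cells and 8.30 kb in wild-type cells. AURKA, the gene of Aurora A, was marked in knockdown cells alone (5.60 kb in knockdown cells, 3.61 kb in wild-type cells). NUMA1, a spindle pole protein gene (3.0 and 13.1 kb), and RCC1, the exchange factor gene of RAN (0.043 and 8.0 kb), were marked in wild-type cells alone. Of the 4 kinesin-2 genes 3 were marked in each list, and KIF3A had 9.95 kb in knockdown cells and 6.75 kb in wild-type cells. Of 6 genes of other regions that are often gained in culture, 4 were marked in knockdown cells (66.7%) and 3 in wild-type cells (50%), against 69.4% of all protein-coding genes in each list, with medians of 3.90 kb in knockdown cells and 2.80 kb in wild-type cells. MDM4, an inhibitor of p53, and NANOG were marked in knockdown cells alone, GDF3 in wild-type cells alone and DPPA3 in neither list, while the survivin gene BIRC5 had 13.0 kb in knockdown cells and 20.8 kb in wild-type cells.

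Promoters rich in CG dinucleotides carried the mark more often over all protein-coding genes. Ranked by their number, 22132 promoter windows were divided into 5 classes. In the class with the fewest, 22.7% had a peak within 2 kb in knockdown cells and 22.5% in wild-type cells. In the class with the most, the shares were 94.1% and 94.3%. The windows span 250 bases before and 50 after each start. The POFUT1 and PLAGL2 windows hold 49 and 47 CG dinucleotides and fall in the highest class, with the outer TTLL9 window, which holds 35. The windows of ID1 (22), the outer BCL2L1 start (20) and KIF3B (17) fall in the middle class, of which 76.2% had a peak within 2 kb in knockdown cells and 74.0% in wild-type cells. The inner BCL2L1 start had the fewest (16) among the windows of these 6 genes, followed by KIF3B, unmarked at its start in wild-type cells. A search of both strands for 4 short motifs, with overlapping matches counted, found GGCGCC at PLAGL2 and at the inner TTLL9 start, as in 24.3% of all windows. The letters TATAAA were found at ID1 and at the outer BCL2L1 start, with 2 matches each, which overlap at ID1, and TTTGAA at ID1. None of the windows of the 6 genes held the E-box CACGTG, which 8.34% of all windows held.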

How the data were processed

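H2AK119ub chromatin immunoprecipitation was measured in 1 YTHDF1 knockdown and 1 wild-type library of H1 cells, and the 2 input libraries were not analysed here. Per the submitters' processing notes the build was hg38, and the tools included SICER 1.1 and MACS2 2.1.0 beside Bowtie2 2.2.5, Trimmomatic 0.35, Picard and SAMtools 1.3.1, with no role stated. The labels do not say which of them called the peaks or how input was used. The deposited files give each peak's position and a score, whose unit the authors do not state. Starts fell on a grid of 200 bp, ends were read as inclusive, and positions are printed from base 1. No depth is stated, and without counts no interval covers these values.

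From these lists, covered lengths, overlaps of at least 1 bp and distances were computed with Python 3.11.15, NumPy 2.4.6 and pandas 2.3.3. The interval arithmetic was tested on simulated data. Genes came from a RefSeq table (GRCh38.p14, the same coordinates as hg38) after rows on scaffolds were left out. Starts were to define marked genes, but they were listed for 15812 genes and 6 of the 10, so either annotated end was used for all. No test was run with 1 library per group. The 10 genes, the interval and the lists were chosen with earlier results of these data known. Tiles, bins, the limits of 10 kb and a score of 10, and gaps of 1 kb were chosen after the data were seen. Beside the 10 genes, the text names ASXL1, genes of the interval that differ by at least 2 kb, family genes marked in 1 library alone or with the 2 largest differences, the 3 widest peaks of each list and the 2 widest unshared ones. Genes named outside this rule were chosen after their values were seen, and 1 gene that meets it is not reported here. Alternatives were the upper 50% of peaks by score, peaks of at least 2 kb, lists of equal length, windows of 5 and 20 kb, and other overlap and distance rules.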

Additional observations from a re-analysis of the deposited data

How the results depend on the processing

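No paired analysis was possible because each group had 1 library. The covered length of the interval was lower in knockdown cells under each alternative tried. It differed by -24.2% with the upper 50% by score, -10.0% with peaks of at least 2 kb and -16.5% with lists of equal length. All chromosomes differed by -15.1%, -15.2% and -16.3% under these settings, and chromosome 20 by -16.6%, -14.1% and -16.1%. Lower cover in knockdown cells was thus not particular to the interval. From the first start to the last end of the 10 genes the difference was -11.4%. With an overlap of at least 50% of each peak, 21 of 70 knockdown peaks (30.0%) and 21 of 47 wild-type peaks (44.7%) were shared. With the upper 50% by score 24 of 27 knockdown peaks (88.9%) and 18 of 22 wild-type peaks (81.8%) were. The shares over all chromosomes under these rules are not given, so whether these values are particular to the interval is not known. With listed starts 6 genes were marked in knockdown cells and 5 in wild-type cells, of the 6 that have one. With the upper 50% by score 7 were marked in knockdown cells and 8 in wild-type cells, and 53.8% and 54.1% of all protein-coding genes. The median difference in covered length over the 10 genes was -0.645 kb with 5 kb windows, -6.25 kb with 20 kb windows, -1.66 kb with the upper 50% by score and -4.42 kb with lists of equal length, against -2.66 kb as reported. For the 15 other genes it was -0.719 kb with 5 kb windows, against -0.600 kb. The median difference in gene body share over the 10 genes was -9.93 percentage points with the upper 50% by score, against -2.09. Single genes that turned were HM13 (-3.40 kb with 20 kb windows), MYLK2 (0.200 kb) and KIF3B (-1.41 kb) in covered length and TTLL9 (-18.6 points) in gene body share, these 3 with the upper 50% by score. The cause was not tested. Peaks under the calling threshold are not in the lists, so a gap in 1 list does not show that the mark was absent there.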

Other observations

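The interval also holds 13 long non-coding RNA genes and 2 microRNA genes, whose peaks were not described above. Peaks touched 12 of the 13 long non-coding RNA genes in knockdown cells and 10 in wild-type cells, and covered 7 of them wholly in knockdown cells and 6 in wild-type cells. Of all 17904 long non-coding RNA genes, 34.5% were touched in knockdown cells and 35.1% in wild-type cells, and 7.32% and 8.53% were covered wholly. The counts in the interval are not separate from its wide cover. LOC124904885, which ends just below the start of KIF3B, lay wholly in a peak in knockdown cells and in none in wild-type cells. BCL2L1-AS1, which runs within the span of BCL2L1, lay in peaks to 57.8% in knockdown cells and 97.4% in wild-type cells. LOC124904883 lay in peaks to 46.0% in knockdown cells and 0% in wild-type cells. Its knockdown peak had a score of 4.09, above 6.32% of its list. MIR3193, next to ID1, lay in a peak in both lists. MIR1825, inside POFUT1 near its upper end, lay in no knockdown peak and wholly in a wild-type peak.

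The 1 tile of chromosome 20 that was covered more than the interval in both lists was centred 31.2 Mb above it and held 35 protein-coding genes, against 25 in the interval. It was covered to 57.7% in knockdown cells and 66.5% in wild-type cells, with 115 knockdown and 91 wild-type peaks. The difference in peak number between the lists was 24 there and 23 in the interval. These are values of 1 library per group, and no difference was tested.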
